A study of Mus musculus with 12 samples.

Results

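The 10 genes described here encode the enzymes through which mouse cells remove peroxides with electrons carried by thioredoxin: the peroxiredoxins Prdx1, Prdx2, Prdx3, Prdx4, Prdx5 and Prdx6, the thioredoxins Txn1 and Txn2, the thioredoxin reductase Txnrd1 and the sulfiredoxin Srxn1. They were chosen by gene symbol, with earlier results of these data known, and all 10 were found among the 28977 gene IDs measured. All 10 also passed the filter on low values, an FPKM (fragments counted in relation to exon length and library depth) of at least 1 in at least 3 libraries, which 12026 genes passed. The cells were J774A.1, a mouse macrophage-like line that the labels name as a single line, so every result holds for 1 line. There were 12 messenger RNA libraries in 4 groups of 3: cells that received cell media, cells that received HBSS, a balanced salt solution, without HOCl (0 µM, the vehicle control), and cells that received hypochlorous acid (HOCl) in HBSS at 20 µM or at 100 µM. In every group the treatment lasted 1 h, and the cells were then returned to full medium for 24 h before collection. The labels mention sublethal and lethal doses without saying which dose was which, and they name no separate cultures behind the replicates, so a p-value reflects the spread among these samples, which may be technical.

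Peroxiredoxins are abundant thiol enzymes that reduce hydrogen peroxide, organic peroxides and peroxynitrite with a reactive cysteine, which is oxidised in the process. In most of them the oxidised cysteine forms a disulfide that thioredoxin reduces, thioredoxin is in turn reduced by thioredoxin reductase with electrons from NADPH, and sulfiredoxin rescues peroxiredoxins whose cysteine has been oxidised too far. Macrophages make peroxide during the respiratory burst, and Prdx1, Txnrd1 and Srxn1 are known targets of NRF2, the transcription factor that switches on genes of oxidant defence from sites called antioxidant response elements.

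Of these 3 genes Prdx1 stood farthest from HBSS at 100 µM HOCl. The order of Txnrd1 and Srxn1 depended on an adjustment for gene length described below and on the choice of scaling. Their promoter sequences are shown. Each is the 250 bases before an annotated start, 5′ to 3′ on the strand of the gene, from RefSeq on build GRCm38.p6. Capitals mark matches to TGACNNNGC, the core of the antioxidant response element, or to TGANTCAGC, a form of it that also holds the AP-1 motif TGANTCA. For Prdx1 the window is chr4:116685349-116685598 on the plus strand, for Srxn1 chr2:152105274-152105523 on the plus strand, and for Txnrd1, at the second of its 3 listed starts, chr10:82858956-82859205 on the plus strand.
Prdx1: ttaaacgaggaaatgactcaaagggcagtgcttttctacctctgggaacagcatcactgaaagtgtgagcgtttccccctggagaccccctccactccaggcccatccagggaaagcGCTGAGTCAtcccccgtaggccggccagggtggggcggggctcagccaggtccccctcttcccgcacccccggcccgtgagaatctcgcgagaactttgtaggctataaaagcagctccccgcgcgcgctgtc
Srxn1: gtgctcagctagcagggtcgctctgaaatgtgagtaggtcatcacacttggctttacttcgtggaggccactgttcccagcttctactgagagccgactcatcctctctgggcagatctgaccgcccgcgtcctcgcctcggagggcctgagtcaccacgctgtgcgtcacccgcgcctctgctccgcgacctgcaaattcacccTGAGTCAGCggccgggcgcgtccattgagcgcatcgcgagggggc
Txnrd1: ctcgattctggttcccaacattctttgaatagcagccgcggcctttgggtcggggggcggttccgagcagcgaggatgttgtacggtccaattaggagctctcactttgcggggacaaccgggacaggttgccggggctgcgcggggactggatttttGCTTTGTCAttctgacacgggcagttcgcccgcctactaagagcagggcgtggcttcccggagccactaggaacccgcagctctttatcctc

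The Prdx1 window held TGACTCAGC on the reverse strand at positions −133 to −125 from the start, which matches both motifs. The Srxn1 window held TGAGTCAGC on the forward strand at −45 to −37, a match to TGANTCAGC but not to TGACNNNGC. At its second start Txnrd1 held TGACAAAGC on the reverse strand at −92 to −84, a match to TGACNNNGC but not to TGANTCAGC. Both strands were searched. Among all 32851 windows of the same length, 10.2% held TGACNNNGC, 1.02% held TGANTCAGC and 6.75% held TGANTCA. TGANTCAGC was added after the matches of the other motifs were seen, so its low share is no evidence for the matches found here. The shares were not matched for base content. The windows shown had 61.6% (Prdx1), 63.2% (Srxn1) and 59.6% (Txnrd1) G or C, against a median of 52.4% over all windows. The motif TGANTCA also occurred a second time in the Prdx1 window, at −237 to −231, and in the Srxn1 window, at −102 to −96. RefSeq entries were found for 9 of the 10 genes, 11 windows in all, with none for Prdx6. Neither longer motif was found in the windows of Prdx2, Prdx3, Prdx4, Prdx5, Txn1 or Txn2, or at the other starts of Txnrd1. A match is a run of letters and not a measured binding site, and elements outside these windows were not searched.

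Cell media replicates 1 and 2 differed from the remaining 10 libraries. Their lowest correlations with these 10 over log2(FPKM + 1) of the tested genes were 0.949 and 0.946, against 0.974 as the lowest among the 10, and ribosomal protein genes made up 12.8% and 12.7% of their FPKM against 7.54% to 8.44%. Differences between groups are given on the scale of log2(FPKM + 1), with a pseudocount of 1, tested with limma on all 12 libraries, which share 1 estimate of spread, and called where the adjusted p (Benjamini-Hochberg, over 12026 genes) was under 0.05. Because the spread within cell media enters every test, counts and some single values are also given without cell media replicates 1 and 2 (10 libraries). Of the 10 genes, Prdx1, Prdx2, Prdx5 and Txn2 are given an adjusted p on 10 libraries at 100 µM, and theirs were the lowest. The median standard error over all genes was 0.13 with 12 libraries and 0.073 with 10. All 10 macrophage markers examined, among them Adgre1, Cd68 and Csf1r, were at 1 FPKM or more in every library. The T cell, B cell, fibroblast, epithelial, endothelial and erythroid markers with a row in the table were below 1 FPKM in every library. Of the 4 neutrophil markers, Mpo, Elane and Ly6g were below 1 FPKM and S100a8 was not. FPKM values rested on 17683685 to 21408518 reads a library, and the lowest number of reads behind a single value of the 10 genes was 1725, for Prdx4.

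In J774A.1 cells under HBSS the system was dominated by 2 cytosolic proteins' transcripts. Prdx1 averaged 493 ± 22 FPKM (SD, n = 3), which put its mean over all libraries at rank 63 of 12026 genes, and Txn1 averaged 384 ± 22 (rank 88). The mitochondrial Prdx3 followed at 111 ± 3.4 and Prdx5, which is found in mitochondria, peroxisomes and cytosol, at 82.0 ± 6.0. Next came Srxn1 at 56.8 ± 2.2, Txnrd1 at 51.2 ± 2.2, Prdx4, the peroxiredoxin of the endoplasmic reticulum, at 42.3 ± 1.4, Prdx6 at 41.4 ± 1.4, Prdx2 at 38.8 ± 2.1 and the mitochondrial thioredoxin Txn2 at 28.1 ± 0.75. FPKM is per length, so these levels can be compared between genes, but only roughly. Values also followed a trend on exon length that differed between libraries, described below. Prdx1, Prdx6 and Txn1 may share reads with near-identical copies. In the 3 HBSS libraries the ranges of Prdx4 and Prdx6 overlapped, as did those of Prdx6 and Prdx2, and each of the other neighbours in this order was separated. Prdx1 alone made up 61.0 ± 0.51% of the summed FPKM of the 6 peroxiredoxins.

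**Figure D1:**
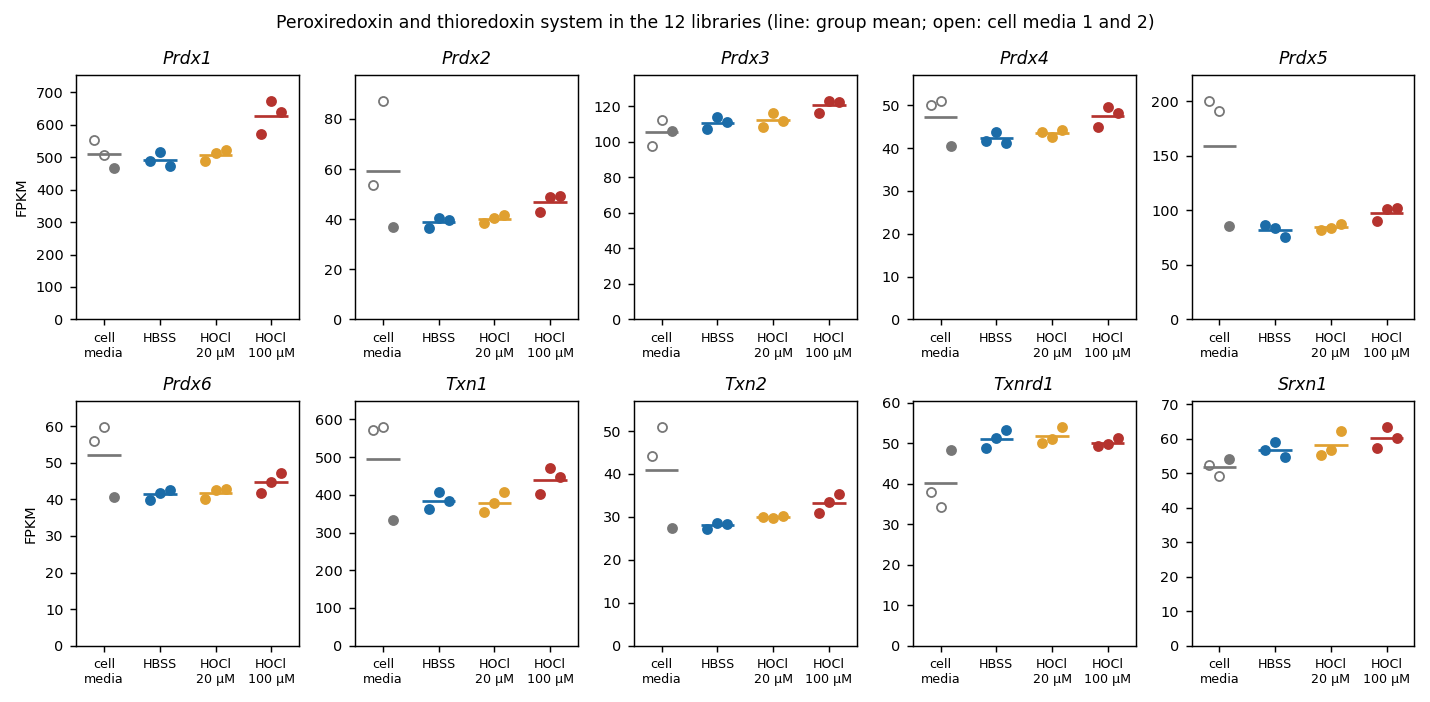
FPKM of the 10 genes in each of the 12 libraries, 1 panel a gene with its own axis from 0; points are libraries, lines are group means, and open points are cell media replicates 1 and 2. At 100 µM HOCl all 3 points of Prdx1, Prdx2, Prdx3, Prdx4, Prdx5 and Txn2 lie above all 3 HBSS points, while those of Txnrd1 lie within the HBSS range.

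At 100 µM HOCl, 9 of the 10 genes stood higher than in HBSS and Txnrd1 did not, but no difference was called with 12 or with 10 libraries. Among all tested genes 48.5% were higher, and the median log2 difference was 0.18 over the 10 genes and −0.0063 over all genes. With quantile normalization these medians were 0.064 and −0.00079, and with median-of-ratios scaling 0.20 and 0.0068. Prdx1 had the largest difference of the 10, a level 27.4% higher. With 12 libraries limma called 0 of the 10 genes, where the share of all genes called was 0%. At an unadjusted p under 0.05 it counted 1 of the 10, Prdx1, and 933 of all 12026 genes. With 10 libraries it called 0 of the 10, where 0.241% of all genes, 29, were called. At an unadjusted p under 0.05 the 10 libraries gave 7 of the 10 genes (Prdx1, Prdx2, Prdx3, Prdx4, Prdx5, Txn1 and Txn2), where 32.2% of all genes were that low. For 6 of the 10 (Prdx1 to Prdx5 and Txn2) the 3 libraries at 100 µM all lay above the 3 HBSS libraries, which held for 16.5% of all genes, and none of the 10 lay wholly below, where 17.6% of all genes did. With library weights limma called 6 of the 10 (Prdx1, Prdx2, Prdx4, Prdx5, Txn1 and Txn2), where 25.5% of all genes were called. Cell media replicate 3 had the lowest weight, 0.0441, against 0.529 and 0.537 for cell media replicates 1 and 2. The part of these weights in the calls was not tested.

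Prdx1 (ENSMUSG00000028691), the main cytosolic peroxiredoxin and the first of the promoters shown above, read 489, 517 and 473 FPKM in HBSS replicates 1 to 3 and 571, 674 and 639 at 100 µM. The lowest library at 100 µM was above the highest in HBSS. The mean went from 493 ± 22 to 628 ± 53 (log2 difference 0.35, SE 0.098, limma adjusted p = 0.590). With 10 libraries the SE was 0.066 and the adjusted p = 0.0558, and over the alternatives in the closing section the adjusted p of limma ran from 0.00621 to 0.968. The difference lay at percentile 95.4 of all tested genes. It was 0.36 with median-of-ratios scaling and 0.20 with quantile normalization.

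Prdx2 (ENSMUSG00000005161), a second cytosolic peroxiredoxin and a major protein of red blood cells, read 36.5, 40.4 and 39.6 FPKM in HBSS and 42.9, 49.0 and 49.1 at 100 µM, again without overlap. Its difference was 0.27 (SE 0.23, adjusted p = 0.698 by limma). In cell media, whose spread enters this SE, Prdx2 read 53.7, 87.2 and 37.0 FPKM. With 10 libraries the SE was 0.065 (limma adjusted p = 0.0649, and 0.0146 to 0.968 over the alternatives).

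Prdx5 (ENSMUSG00000024953), which acts in several compartments, read 86.5, 84.2 and 75.2 FPKM in HBSS and 90.7, 101 and 102 at 100 µM. The groups did not overlap, but HBSS replicate 1 and HOCl 100 µM replicate 1 were close. The difference was 0.26 (SE 0.25, limma adjusted p = 0.728, with SE 0.066 and adjusted p = 0.0696 on 10 libraries, and 0.0174 to 0.968 over the alternatives). Prdx4 (ENSMUSG00000025289), which couples peroxide removal to the oxidative folding of proteins in the endoplasmic reticulum, read 41.8, 43.9 and 41.2 FPKM in HBSS and 44.9, 49.6 and 48.2 at 100 µM. Its difference was 0.17 (SE 0.091, limma adjusted p = 0.662, and 0.0155 to 0.968 over the alternatives).

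Prdx3 (ENSMUSG00000024997), the peroxiredoxin found only in mitochondria, read 107, 114 and 111 FPKM in HBSS and 116, 123 and 122 at 100 µM. These groups were separated by a small margin, 114 against 116 FPKM, and the difference was 0.12 (SE 0.076, limma adjusted p = 0.669, and 0.0249 to 0.992 over the alternatives). It was −0.0031 with quantile normalization, so its direction depended on the scaling. Prdx6 (ENSMUSG00000026701), the 1-Cys peroxiredoxin, which also acts on phospholipids and draws on glutathione instead of thioredoxin, read 39.8, 41.9 and 42.6 FPKM in HBSS and 41.7, 44.9 and 47.3 at 100 µM. The groups overlapped, and the difference was 0.10 (SE 0.12, limma adjusted p = 0.751). The summed FPKM of the 6 peroxiredoxins was 808 ± 30 in HBSS and 986 ± 70 at 100 µM, and the share of Prdx1 in it was 61.0 ± 0.51% and 63.7 ± 0.94%.

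Txn1 (ENSMUSG00000028367), the cytosolic thioredoxin that hands electrons to peroxiredoxins and to ribonucleotide reductase, read 362, 406 and 383 FPKM in HBSS and 402, 470.3 and 446 at 100 µM. HBSS replicate 2 lay above HOCl 100 µM replicate 1, so the groups overlapped. The difference was 0.19 (SE 0.18, limma adjusted p = 0.717, and 0.0279 to 0.968 over the alternatives), and 0.041 with quantile normalization. Txn2 (ENSMUSG00000005354), the mitochondrial thioredoxin that serves Prdx3, read 27.2, 28.6 and 28.4 FPKM in HBSS and 30.8, 33.4 and 35.3 at 100 µM. The groups did not overlap, and the difference was 0.23 (SE 0.17, limma adjusted p = 0.686, with SE 0.051 and adjusted p = 0.0580 on 10 libraries, and 0.0150 to 0.968 over the alternatives).

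Txnrd1 (ENSMUSG00000020250), the cytosolic selenoenzyme that reduces Txn1, read 48.9, 51.2 and 53.3 FPKM in HBSS and 49.3, 49.9 and 51.2 at 100 µM. The libraries at 100 µM lay inside the HBSS range. The difference was −0.027 (SE 0.11, 95% confidence interval −0.27 to 0.21, limma adjusted p = 0.925), and the interval was −0.13 to 0.076 on 10 libraries. Removing a trend on exon length, described below, turned it to 0.060, and leaving out HBSS replicate 3 to 0.0018. With quantile normalization the difference of Txnrd1 was −0.11. Srxn1 (ENSMUSG00000032802), whose promoter is shown above, read 56.6, 59.1 and 54.8 FPKM in HBSS and 57.2, 63.3 and 60.3 at 100 µM. The groups overlapped, and the difference was 0.083 (SE 0.077, 95% confidence interval −0.087 to 0.25, limma adjusted p = 0.716). It was 0.0044 with quantile normalization. Of the 3 genes with a promoter shown, only Prdx1 had groups that did not overlap.

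**Figure D2:**
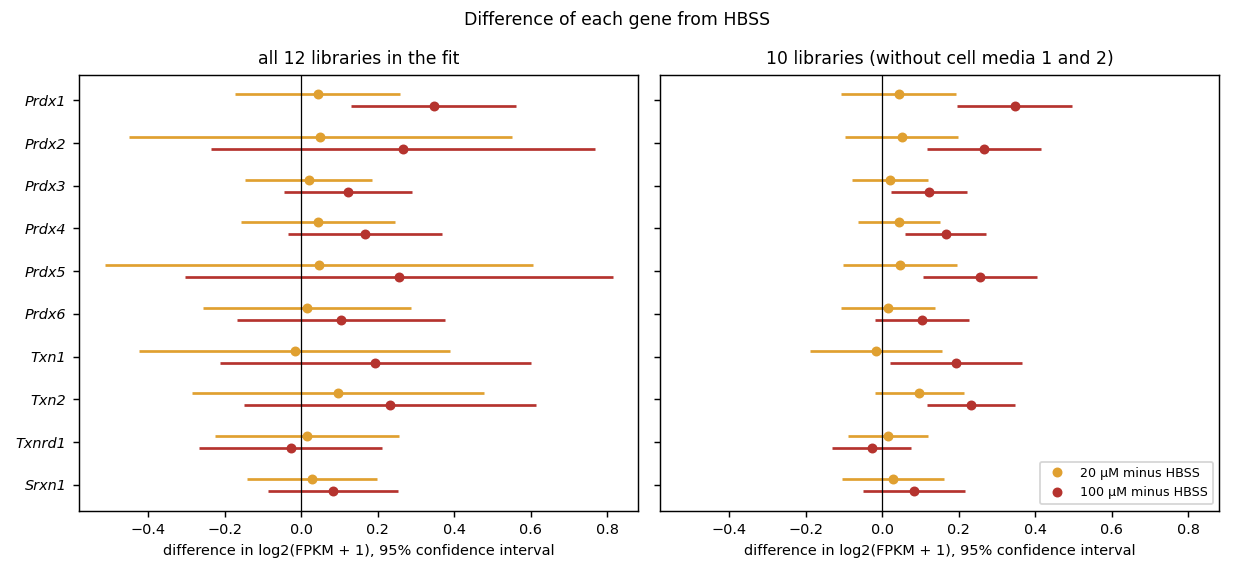
Difference of each gene from HBSS on the log2(FPKM + 1) scale at 20 µM (orange) and 100 µM (red) HOCl, with 95% confidence intervals from limma, on all 12 libraries (left) and on 10 (right). The intervals of Prdx2, Prdx5, Txn1 and Txn2 narrow most on the right, and at 100 µM the intervals of Prdx1 to Prdx5, Txn1 and Txn2 then lie above 0 before any adjustment over genes.

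A scaling factor shared by all genes of a library cancels in a ratio of 2 genes. The ratio of Prdx1 to Txnrd1 FPKM read 10.0, 10.1 and 8.87 in HBSS, 9.74, 10.1 and 9.65 at 20 µM, and 11.6, 13.5 and 12.5 at 100 µM. All libraries at 100 µM were above all libraries of HBSS and of 20 µM, with means of 9.65 ± 0.68, 9.82 ± 0.23 and 12.5 ± 0.96. Prdx1 had the highest and Txnrd1 the lowest difference of the 10 genes, so this choice of genes favoured a separated ratio. The share of all gene pairs that separate in this way was not counted. The ratio of Txn1 to its reductase Txnrd1 was 7.19 to 7.92 in HBSS, 7.05 to 7.55 at 20 µM and 8.15 to 9.42 at 100 µM, again without overlap. The ratio of Prdx1 to Srxn1 was 8.63 to 8.75, 8.36 to 9.07 and 9.98 to 10.6. Txn1 stood lower relative to Prdx1 at 100 µM (0.698 to 0.704) than in HBSS (0.739 to 0.810). The ratio of Txn2 to Txnrd2, its reductase, was 5.10 to 5.72 in HBSS, 5.94 to 6.15 at 20 µM and 5.82 to 7.72 at 100 µM. That of Prdx3 to Txn2 was 3.90 to 3.99, 3.61 to 3.898 and 3.47 to 3.77. Cell media replicates 1 and 2 had Prdx1 to Txnrd1 ratios of 14.6 and 14.8 and cell media replicate 3 had 9.66. The trend on exon length described below bears on these ratios, since Txn1 is the shortest and Txnrd1 the longest of the 10 genes. On the log2 scale, Txn1 minus Txnrd1 was 0.22 higher at 100 µM than in HBSS, and 0.020 with that trend removed. Prdx1 minus Txnrd1 was 0.37 higher, and 0.26 with the trend removed, while Prdx1 minus Srxn1 was 0.26 and 0.27. With quantile normalization these 3 values were 0.16, 0.31 and 0.20. With 3 libraries against 3 no exact permutation test can give a p below 0.1, so the ratios were not tested.

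**Figure D3:**
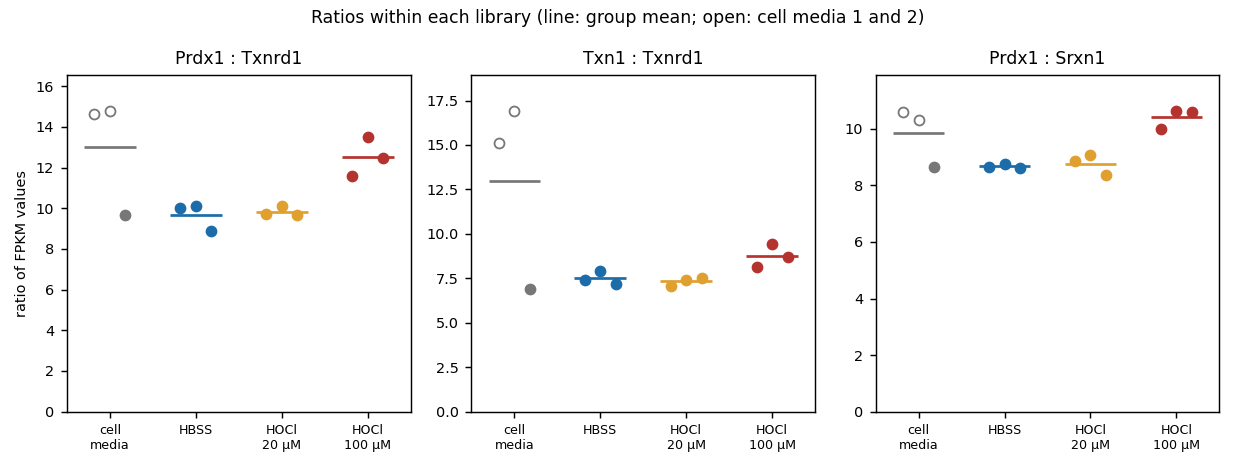
Ratios of FPKM values within each library for Prdx1 to Txnrd1, Txn1 to Txnrd1 and Prdx1 to Srxn1; points are libraries, lines are group means, and open points are cell media replicates 1 and 2. The 3 libraries at 100 µM HOCl lie above the HBSS and 20 µM libraries in all 3 panels, and the open points lie higher still in the first 2. With the length trend removed, the log2 difference of Txn1 to Txnrd1 between 100 µM and HBSS was 0.020 in place of 0.22.

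Gene length moved with the difference at 100 µM over all genes. Among genes with 1000 to 1500 bases of exon, where Prdx3 and Txn1 fall, the median log2 difference from HBSS was 0.14. It was 0.070 for 2000 to 3000 bases (Prdx4, Prdx5 and Srxn1), 0.0073 for 3000 to 5000 bases (Prdx1, Prdx2, Prdx6 and Txn2) and −0.094 above 5000 bases (Txnrd1). Of the 10 genes, 7 were shorter than the median of 3795 bases. With each library's trend on length removed, the median over the 10 genes at 100 µM was 0.13 in place of 0.18. Prdx1 was then at 0.32, Prdx2 at 0.24 and Txn2 at 0.25, while Prdx3 was at 0.034 and Txn1 at 0.081. Srxn1 was at 0.053 and Txnrd1 at 0.060, so Txnrd1 then stood above 0 and close to Srxn1. Before this adjustment Txnrd1, at −0.027, also lay above the median of its length range, −0.094. The difference of cell media replicates 1 and 2 from HBSS was also lower for longer genes, from 0.14 and 0.36 at 1000 to 1500 bases to −0.37 and −0.40 above 5000 bases. The part of length in the differences of single genes beyond this adjustment was not tested. Other measures moved at 100 µM as well. The summed FPKM of the 10 macrophage markers was 3418 to 3733 in HBSS and 3931 to 4453 at 100 µM, and that of the 4 neutrophil markers, of which S100a8 alone reached 1 FPKM, was 9.99 to 12.8 and 14.0 to 16.5. Their part in these results was not tested, and in bulk libraries more transcript per cell and more cells of a kind cannot be told apart.

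**Figure D4:**
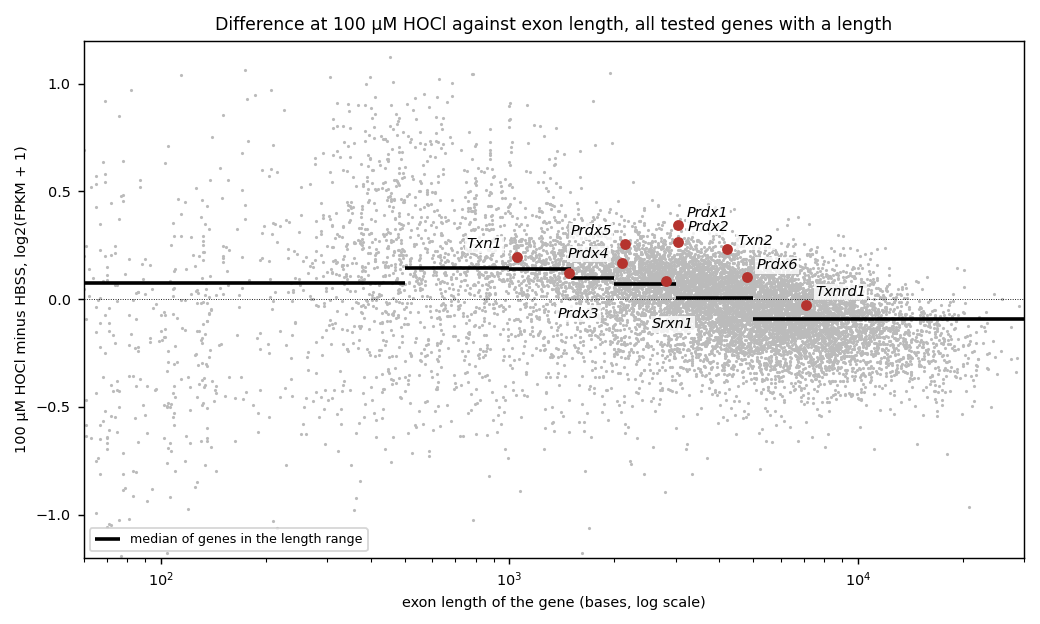
Log2 difference between 100 µM HOCl and HBSS against exon length (log axis) for tested genes with a known length (grey), with 28 genes outside the axes, the median in each length range (black lines) and the 10 genes (red). The black lines drop from 0.14 at 1000 to 1500 bases to −0.094 above 5000, and Prdx1, Prdx2 and Txn2 lie farthest above the line of their length range.

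At 20 µM HOCl the 10 genes stood close to their HBSS levels. The log2 differences ran from −0.017 for Txn1 to 0.097 for Txn2, with a median of 0.036 over the 10 genes and 0.0057 over all genes, and 9 of 10 were higher where 53.9% of all genes were. Limma called 0 of the 10, where 0% of all genes were called with 12 libraries and 0% with 10. At an unadjusted p under 0.05 on 10 libraries it counted none of the 10, where 3.08% of all genes were that low, and on 12 libraries none of the 10 and 130 of all genes. Txn2 was the 1 gene whose groups did not overlap, with 30.1, 29.8 and 30.3 FPKM at 20 µM against 27.2, 28.6 and 28.4 in HBSS, which held for 4.21% of all genes (SE of its difference 0.17). Prdx1 read 488, 514 and 521 FPKM at 20 µM, a difference of 0.043 with a 95% confidence interval of −0.17 to 0.26, which on 10 libraries was −0.11 to 0.19. Txnrd1 read 50.1, 51.0 and 54.0 FPKM (difference 0.015, SE 0.11), and Srxn1 read 55.2, 56.7 and 62.3 (0.029, SE 0.077). Both overlapped with HBSS. The direction at 20 µM turned for Prdx3, Prdx5, Prdx6, Txn1, Txnrd1 and Srxn1 when 1 library was left out, so none of these has a settled sign.

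Set against 20 µM instead of HBSS, 9 of the 10 genes were higher at 100 µM, where 46.2% of all genes were. The medians were 0.13 over the 10 genes and −0.017 over all genes, and 0.069 and 0.010 with quantile normalization. Both comparisons use the 100 µM libraries and are not independent. Limma called 0 of the 10, where 0% of all genes were called with 12 libraries and 0% with 10. At an unadjusted p under 0.05 it counted 1 of the 10 with 12 libraries, Prdx1, and 481 of all 12026 genes. With 10 libraries it counted 7 of the 10, where 26.2% of all genes were that low. Groups did not overlap for Prdx1, Prdx2, Prdx3, Prdx4, Prdx5 and Txn2, all higher at 100 µM, against 12.7% of all genes. Prdx1 differed by 0.30 (SE 0.098, limma adjusted p = 0.825), Prdx2 by 0.22 (SE 0.23), Prdx5 by 0.21 (SE 0.25) and Txn1 by 0.21 (SE 0.18). Txnrd1 differed by −0.043 (SE 0.11, 95% confidence interval −0.28 to 0.20) and Srxn1 by 0.054 (SE 0.077). The largest of the 10 differences was thus again that of Prdx1, and that of Txnrd1 again lay below 0.

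HBSS against cell media asks what the vehicle itself did, and here the result for these genes rested on cell media replicates 1 and 2. With 12 libraries, 7 of the 10 genes were lower in HBSS. The median log2 difference of the 10 genes was −0.23, where that of all genes was 0.10. With quantile normalization these medians were 0.0096 and 0.023. Limma called 0 of the 10, where 0.0166% of all genes, 2, were called. At an unadjusted p under 0.05 it counted 5 of the 10 and 4806 of all 12026 genes. On 10 libraries, with cell media replicate 3 alone as the control and the spread taken from the other groups, 0 of the 10 were called, where 0% of all genes were, and the median was 0.064. Txnrd1 and Srxn1 were the genes of the 10 that lay wholly above cell media, where 12.7% of all genes did, and none lay wholly below, where 8.91% did.

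Prdx5 read 201, 191 and 85.4 FPKM in cell media, against 75.2 to 86.5 in HBSS. Its difference was −0.85 (SE 0.25, limma adjusted p = 0.0711) with 12 libraries and −0.060 against cell media replicate 3 alone. Txn1 read 572, 579 and 333 FPKM in cell media, and its difference of −0.32 (SE 0.18) became 0.20 against replicate 3 alone. Txn2 read 44.3, 50.9 and 27.5 FPKM, a difference of −0.48 (SE 0.17, limma adjusted p = 0.0809) that became 0.028. Prdx6 read 55.9, 59.8 and 40.7 FPKM and Prdx4 read 50.01, 51.0 and 40.5, so for both of these genes, too, the third library was the one near HBSS. Txnrd1 went the other way, with 37.8, 34.2 and 48.2 FPKM, all below the 48.9 to 53.3 of HBSS (difference 0.36, SE 0.11, limma adjusted p = 0.0711, and 0.082 against replicate 3 alone). Srxn1 read 52.2, 49.1 and 54.0 FPKM (difference 0.13, SE 0.077). Prdx1, at 553, 506 and 466 FPKM, and Prdx3, at 97.5, 112 and 106, overlapped with HBSS. Over the alternatives the adjusted p of limma in this comparison ran from 1.64e-06 to 0.831 for Prdx5 and from 7.03e-05 to 0.699 for Txnrd1. Without cell media replicate 3, 7 of the 10 genes were called, where 65.3% of all genes were.

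Other genes of the pathway were examined in 8 lists. At 100 µM against HBSS none of their genes was called with 12 or with 10 libraries. Of all genes, 16.5% lay wholly above HBSS at 100 µM and 17.6% wholly below. Most list genes below were named for the smallest p in their list, which favours groups without overlap. Their values are given without removal of the length trend. The thioredoxin family and partners had a median log2 difference of 0.050, with 10 of 17 tested genes higher. Txnl1, a thioredoxin-like partner of the proteasome, averaged 16.1 ± 0.94 FPKM in HBSS and 18.1 ± 1.2 at 100 µM (difference 0.16, SE 0.075, limma adjusted p = 0.636). Txndc17, a small cytosolic thioredoxin-like protein, averaged 44.3 ± 1.7 and 50.1 ± 3.5 (0.17, SE 0.083). Txnip, the inhibitor that binds reduced thioredoxin, read 92.9, 100.5 and 96.3 FPKM in HBSS and 91.3, 72.2 and 77.9 at 100 µM, lower without overlap (−0.27, SE 0.14, limma adjusted p = 0.652). In cell media Txnip read 135, 106 and 142 FPKM. The difference of Txnip thus had the opposite sign to those of Txn1 and Txn2. The reductase of Txn2, Txnrd2, which lies outside the rule for named genes and was chosen after its values were seen, averaged 5.10 ± 0.19 and 4.87 ± 0.38 FPKM (−0.058, SE 0.073). Txnrd3, the third reductase, chosen likewise, averaged 5.76 ± 0.24 and 6.01 ± 0.38 FPKM (0.050, SE 0.069), so the reductases of the list had no common direction.

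Glutaredoxins, which reduce disulfides with glutathione, were higher at 100 µM in 4 of 4 genes, with a median of 0.19. Glrx, the cytosolic form, averaged 20.7 ± 2.4 FPKM in HBSS and 25.7 ± 3.0 at 100 µM (0.30, SE 0.16), with 22.4 as its lowest library at 100 µM and 22.2 as its highest in HBSS. Glrx3, a chaperone of iron-sulfur clusters, averaged 34.0 ± 0.93 and 37.8 ± 1.6 FPKM (0.15, SE 0.10) and the mitochondrial Glrx2 averaged 4.12 ± 0.26 and 4.47 ± 0.16 (0.097, SE 0.073). Of the other enzymes that remove peroxides, 3 of 6 passed the filter and all 3 were higher, with a median of 0.16. Catalase, Cat, averaged 72.1 ± 3.2 and 80.4 ± 3.3 FPKM (0.16, SE 0.098), Gpx4, which protects membrane lipids, averaged 96.7 ± 4.2 and 114 ± 5.7 (0.23, SE 0.33), and Gpx1, the abundant cytosolic glutathione peroxidase, averaged 492 ± 32 and 538 ± 47 (0.12, SE 0.28). In cell media, whose spread enters these SE values, Gpx4 read 345, 285 and 106 FPKM. Gpx1 was at −0.025 with quantile normalization. Its level in HBSS was close to that of Prdx1.

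Proteins that draw on thioredoxin were examined in the lists of methionine sulfoxide reductases and ribonucleotide reductase. Msrb2, which repairs oxidised methionine in mitochondria, averaged 4.63 ± 1.1 FPKM in HBSS and 5.93 ± 0.46 at 100 µM (0.32, SE 0.14, limma adjusted p = 0.636), with overlap. Msra averaged 1.60 ± 0.17 and 1.79 ± 0.35 FPKM, and Msrb1 averaged 90.6 ± 5.8 and 97.6 ± 2.6. The log2 difference of Msrb1 was 0.11, and −0.0068 with quantile normalization. All 3 tested genes of that list were higher, with a median of 0.11. Of the ribonucleotide reductase subunits, Rrm2b, the p53-dependent small subunit, stood lower without overlap, at 4.78 ± 0.27 and 3.86 ± 0.37 FPKM (−0.25, SE 0.16). Rrm2, the subunit of dividing cells, averaged 96.5 ± 16 and 110.0 ± 7.8 (0.20, SE 0.14) and Rrm1, the large subunit, averaged 33.9 ± 4.0 and 37.0 ± 1.7 (0.13, SE 0.19). The list had 2 of 3 higher and a median of 0.13.

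Txnrd1 contains selenocysteine, and of 7 genes for the synthesis of selenoproteins 6 were higher at 100 µM, with a median of 0.091. Eefsec, the elongation factor for selenocysteine, averaged 11.5 ± 0.62 FPKM in HBSS and 13.0 ± 0.65 at 100 µM (0.16, SE 0.11). Sepsecs, which makes the selenocysteine carried by its tRNA, averaged 2.24 ± 0.056 and 1.88 ± 0.27 (−0.17, SE 0.12), and Secisbp2, which reads the selenocysteine signal in the transcript, averaged 4.86 ± 0.25 and 5.24 ± 0.11 (0.091, SE 0.096). Of the sestrins, stress proteins linked to peroxiredoxin repair and to mTORC1, 2 of 3 passed the filter. Sesn2 stood lower without overlap, at 19.4 ± 0.62 and 16.8 ± 1.5 FPKM (−0.20, SE 0.078, limma adjusted p = 0.625), and Sesn1 averaged 2.26 ± 0.14 and 2.41 ± 0.11 (0.067, SE 0.11). The median of these 2 genes was −0.068.

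NRF2 itself and its regulators had 3 of 8 genes higher and 5 lower at 100 µM, with a median of −0.075. The smallest p-values with 12 libraries were those of Mafg and Mafk, which encode small MAF proteins, partners that bind antioxidant response elements together with NRF2 or with its competitor BACH1. Mafg read 27.4, 24.6 and 27.1 FPKM in HBSS and 23.9, 21.01 and 20.6 at 100 µM, lower without overlap (−0.26, SE 0.077, limma adjusted p = 0.602). Mafk read 6.13, 6.24 and 6.61 FPKM and 5.46, 5.26 and 5.21, also lower without overlap (−0.21, SE 0.070, limma adjusted p = 0.602). Of all genes 17.6% were lower in this way. Keap1, the adaptor that directs NRF2 to degradation, averaged 7.09 ± 0.41 and 7.87 ± 0.30 FPKM (0.13, SE 0.072), higher without overlap. Nfe2l2, the gene of NRF2, and Bach1 were named after their values were seen, and averaged 59.2 ± 5.3 and 54.9 ± 1.8 FPKM (Nfe2l2) and 14.0 ± 0.67 and 11.4 ± 0.68 FPKM (Bach1). Bach1 was lower without overlap (−0.28, SE 0.16), and on 10 libraries its limma adjusted p = 0.0580 lay between those of Mafk (0.0564) and Mafg (0.0691). Maff, the other small MAF gene of the list, was also named after its values were seen, and averaged 2.66 ± 0.22 and 3.05 ± 0.25 FPKM (0.14, SE 0.15), with overlap. The small MAF genes thus had no common direction at 100 µM.

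Over the 9 libraries of the HBSS and HOCl groups, the 10 genes except Txnrd1 went up and down together. The Pearson correlations of log2(FPKM + 1) between these 9 genes ran from 0.60 (Txn2 and Srxn1) to 0.96 (Prdx1 and Prdx4) over 36 pairs, with a median of 0.86. With the group means subtracted they ran from 0.31 to 0.93 with a median of 0.71, so libraries of the same group also varied together. Txnrd1 correlated with the other 9 genes at −0.34 to 0.29, with a median of −0.022. With group means subtracted this was −0.10 to 0.75 with a median of 0.42, so within groups Txnrd1 mostly varied with the others. Correlations between pairs of all genes were not summarised, so moving together is not shown to be particular to these genes. The genes most like Prdx1 over the same 9 libraries, among 7315 with a mean of at least 5 FPKM, were the calmodulin gene Calm2 (r = 0.992), Use1 (0.992), the proteasome subunit Psmb7 (0.9901), the ribosomal protein gene Rps14 (0.989) and Gpx4 (0.989). Most like Txnrd1 were E2f8 (0.965), Gar1 (0.947), Zfp710 (0.942), Slc38a10 (0.929) and Carm1 (0.925). Most like Srxn1 were Rgs10 (0.966), Prcp (0.956), Gm6136 (0.949), Ndufa3 (0.942) and 1700037H04Rik (0.925). The 3 sets of 5 had no gene in common. The libraries share treatment group and the length trend described above, so these correlations are a description of 9 libraries only.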

How the data were processed

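Messenger RNA of 12 J774A.1 samples was measured, and the authors deposited FPKM values per gene ID, the unit of every value here. HISAT2, featureCounts and build GRCm39 are named in the upstream record, per the submitters' processing notes. Their versions, settings and strand handling are not given in the sources used here. Symbols and exon lengths came from GENCODE M21, a release of another build, so no coordinates were taken from it. Prdx1, Prdx6 and Txn1 have near-identical copies or pseudogenes and may share reads with them, so their values are less certain. The other genes, Prdx2 among them, were not shown to be free of this. The tested genes include a pseudogene, Tdpx-ps1 (log2 difference 0.44 at 100 µM against HBSS), whose parent gene was not determined here.

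The 10 genes, the lists, the rule for named genes and the tests were chosen with earlier results of these data known. The rule named the 10 genes, any list gene called, the 3 genes with the smallest p at 100 µM in each list, and the 5 genes most correlated with Prdx1, Txnrd1 and Srxn1. The motif TGANTCAGC was added after the other motifs' matches were seen.

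Genes with at least 1 FPKM in at least 3 of 12 libraries were tested on log2(FPKM + 1) with limma 3.58.1 in R 4.3.3 (1 mean per group, mean-variance trend, two-sided). The fit was checked on simulated data, whose spread was that of the HBSS and HOCl groups. The wider spread of cell media was left out, so the check does not show which differences the fit on 12 libraries could call. Tables and figures used Python 3.11.15, numpy 2.4.6, pandas 2.3.3 and matplotlib 3.10.9. Reads per library were recovered from the step between low FPKM values, with 98.26% of values below 1 whole within 0.01 of a read, and served for depth and 1 alternative test. Alternatives were a pseudocount of 0.1, 2 other filters (none, or a mean FPKM of 5 or more), 2 other scalings, the 2 groups alone, 10 libraries, the replicate number as a block, no variance trend, library weights (gene by gene, 0.0441 for cell media replicate 3 to 7.39 for HOCl 20 µM replicate 2), limma-voom on recovered reads and each library left out in turn. Removal of a loess trend on exon length (span 0.5) was added once the data had been seen.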

Additional observations from a re-analysis of the deposited data

How the results depend on the processing

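At 100 µM against HBSS the 10 genes kept their direction in 137 of 140 values from the alternatives other than leaving out 1 library. The exceptions were Prdx3, at −0.0031 with quantile normalization, and Txnrd1, at 0.060 with the length trend removed on 12 and on 10 libraries. Among the 120 values with 1 library left out, the exception was Txnrd1 without HBSS replicate 3 (range −0.058 to 0.0018). Many of these values could not change sign. The filters, the 2 groups alone, 10 libraries, the replicate block and no variance trend leave this difference as it is. Leaving out a cell media or 20 µM library does so too. Against 20 µM, Prdx3 was −0.0061 and Srxn1 −0.0097 with quantile normalization, and Txnrd1 0.046 with the length trend removed on 12 and on 10 libraries. At 20 µM against HBSS, Prdx3 was −0.0064 with the length trend removed (12 and 10 libraries), Prdx6 −0.0069 and Txnrd1 −0.0015 with quantile normalization, and Txnrd1 −0.016 with library weights. With 1 library left out, values there ran from −0.0057 to 0.043 for Prdx3, −0.014 to 0.086 for Prdx5, −0.013 to 0.045 for Prdx6, −0.069 to 0.034 for Txn1, −0.016 to 0.045 for Txnrd1 and −0.022 to 0.065 for Srxn1.

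HBSS against cell media turned on the 10 libraries: Prdx1 was then 0.080 (0.077 with the length trend removed), Prdx2 0.067 (0.065), Prdx4 0.060 (0.052), Prdx6 0.024 (0.036), Txn1 0.20 (0.21) and Txn2 0.028 (0.035). With quantile normalization Prdx1 was 0.40 and Txn1 0.10, and with median-of-ratios scaling Prdx3 was −0.046. With 1 library left out Prdx1 ran from −0.10 to 0.020.

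Counts of all genes called, in the order 100 µM against HBSS, 100 µM against 20 µM, 20 µM against HBSS and HBSS against cell media, were 0, 0, 0 and 2. Without the filter they were 1, 11, 6 and 5. With library weights they were 3067, 4677, 0 and 6889. With the 2 groups alone the first was 2, the second 1 and the last 0. On 10 libraries the first was 29 and the last 0, and with the length trend removed as well 26 and 0. For HBSS against cell media the count was 1 with a mean of at least 5 FPKM, 4 with quantile normalization, 5 without the variance trend, 4 with limma-voom and 18 with the length trend removed. With 1 library left out the counts ran from 0 to 5 (5 without cell media replicate 3), from 0 to 1 and, for HBSS against cell media, from 0 to 7852 (7852 without cell media replicate 3). Of the 10 genes, library weights called 6 at 100 µM against HBSS, 6 against 20 µM and 7 in HBSS against cell media, and leaving out 1 library called 0 to 7 in the last, 7 without cell media replicate 3. The cause was not tested.

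Replicate numbers did not pair the samples: 7 of 18 same-numbered pairs correlated above 0.1 in their deviations from the group means (range −0.417 to 0.414), and 5 of 12 libraries correlated best with their own number. With the replicate number as a block, the count of all genes called in HBSS against cell media was 193. With the block on 10 libraries, 2979 genes were called at 100 µM against HBSS, 2088 against 20 µM and 0 in HBSS against cell media, and of the 10 genes 7 and 4 in the first and second. In that fit HBSS against cell media gave 0.082 for Prdx1, 0.12 for Prdx2, 0.062 for Prdx4, 0.076 for Prdx6, 0.25 for Txn1 and 0.068 for Txn2.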
